A study of Homo sapiens with 6 samples.

Results

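The genes described here encode the small nuclear RNAs of the spliceosome and the small RNAs of the Cajal body, the nuclear structure in which spliceosomal RNAs are modified. They were taken as every gene whose single symbol in the platform's probe annotation begins with RNU, RNVU or SCARNA, which gave 39 of the 18417 genes measured. Of these, 21 are spliceosomal by name, 16 are Cajal body RNAs (SCARNA), and 2 (RNU105B and RNU105C) carry an RNU symbol but are listed as small nucleolar RNAs in RefSeq, so the label does not cover them. The spliceosomal genes comprise 8 variant U1 genes, 1 U2 gene, 2 U4 genes, 5 U5 genes, 1 U6 pseudogene and 4 RNAs of the minor spliceosome.

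Values came from 6 Affymetrix arrays of MDA-MB-231, an established line of human breast cancer cells that lack the usual hormone receptors and HER2. Of the 6 samples, 3 were given DMSO, the vehicle, and 3 were given YW3-56, which inhibits peptidylarginine deiminases, at 10 µM for 8 h. A time for the vehicle is not stated separately, and every sample is of this single line. The labels call the replicates biological without saying how they were separated, so p-values measure the spread between these samples.

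Spliceosomal RNAs are the catalytic and recognition parts of the machinery that removes introns. U1 pairs with the start of an intron and U2 with its branch point, while U4, U5 and U6 join as a larger particle, and U11, U12, U4atac and U6atac do the same work on a rare class of introns. RNA polymerase II makes all of them except U6 and U6atac, which RNA polymerase III makes, and the Integrator complex cuts the polymerase II transcripts at their ends. Cajal body RNAs (scaRNAs) guide methylation (box C/D) or pseudouridylation (box H/ACA) of spliceosomal RNAs, and most of them are cut out of introns of other genes. Several genes of each spliceosomal RNA are near-identical copies, so a probe set can take up RNA from more than the gene it is named for.

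In cells given YW3-56, 9 of the 21 spliceosomal RNA genes were lower and 0 were higher, while 0 of the 16 Cajal body RNAs were called in either direction. A gene is called at an adjusted p under 0.05 in limma with Benjamini-Hochberg adjustment over all 18417 genes, and 11.5% of all genes were called lower and 9.84% higher. The lower genes were 5 U1 variants (RNVU1-4, RNVU1-6, RNVU1-15, RNVU1-17 and RNVU1-19), RNU2-1, the U5 gene RNU5D-1, and the minor spliceosome RNAs RNU11 and RNU4ATAC. Their log2 differences, YW3-56 minus DMSO, ran from -1.84 for RNU5D-1 to -0.48 for RNVU1-4. At an unadjusted p under 0.05, limma gave 2 Cajal body RNAs, SCARNA9 and SCARNA16. In bulk RNA, fewer cells with a transcript and less of it per cell cannot be told apart.

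The median log2 difference was -0.41 over the 21 spliceosomal RNAs, -0.04 over the 16 Cajal body RNAs and -0.05 over all genes tested. Of the spliceosomal RNAs, 11 had all 3 treated values below all 3 DMSO values, and of the Cajal body RNAs 2 did (SCARNA12 and SCARNA16). Over all genes, 21.4% did so. No member lay entirely above its DMSO values, whereas 2862 of the 18417 genes tested did. These are counts and medians over genes that share sequence and, in part, probes, and no test was made over a class as a whole.

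**Figure D1:**
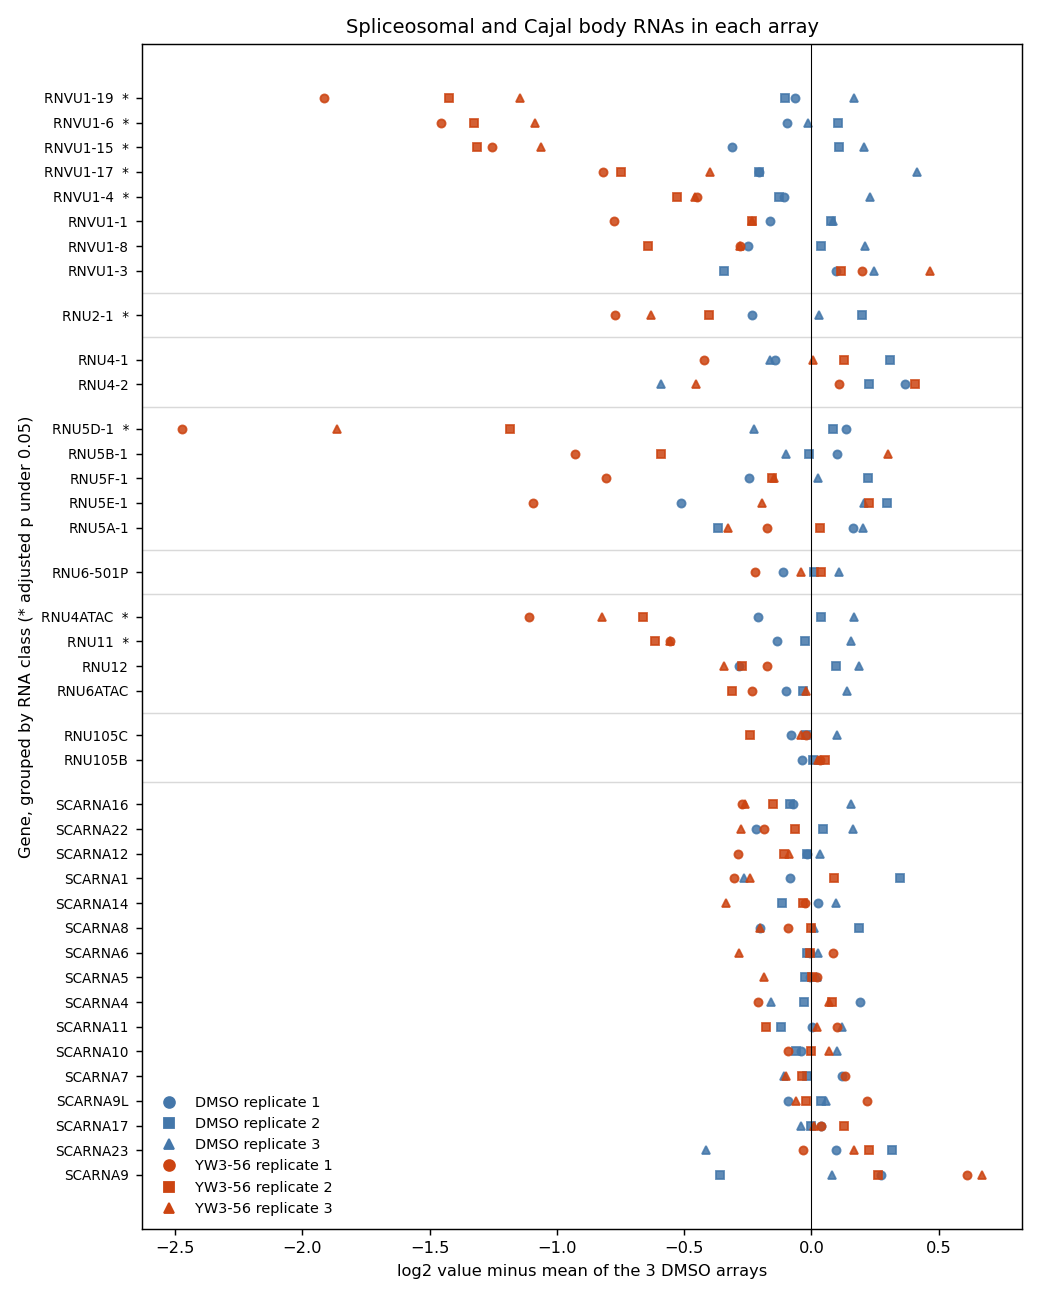
Each row is 1 of the 39 genes, ordered by difference within its class, and each point is 1 array, plotted as its log2 value minus the mean of the 3 DMSO arrays of that gene. Blue marks DMSO and red YW3-56, the marker shape gives the replicate number, and a star marks the 9 genes called by limma. The red points of most U1 variants, RNU2-1, RNU5D-1, RNU4ATAC and RNU11 lie to the left of the blue points, whereas red and blue overlap for nearly all SCARNA genes.

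The U1 variants are genes beside the main U1 genes whose products differ from U1 at a few bases, and all 8 measured here lie on chromosome 1. RNVU1-6 (probe set 7904715) read 9.06, 9.26 and 9.14 in DMSO replicates 1 to 3 and 7.70, 7.83 and 8.07 in YW3-56 replicates 1 to 3. It was 2.44-fold lower, with a log2 difference of -1.29 ± 0.11 (SE, with n = 3 in each group, limma adjusted p = 0.00025). The highest treated value was well below the lowest DMSO value, and this was the smallest adjusted p among the 39 genes.

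RNVU1-19 (probe set 7904967) read 9.61, 9.57 and 9.84 in DMSO and 7.76, 8.25 and 8.53 in YW3-56, and was 2.81-fold lower (-1.49 ± 0.18, limma adjusted p = 0.000975). RNVU1-15 (probe set 7919556) read 9.09, 9.51 and 9.61 in DMSO and 8.15, 8.09 and 8.34 in YW3-56, and was 2.31-fold lower (-1.21 ± 0.14, adjusted p = 0.000852). In both genes the groups did not overlap, although DMSO replicate 1 was low for RNVU1-15 and YW3-56 replicate 1 was low for RNVU1-19. The other probe set of RNVU1-15 gave -1.24, and the other probe set of RNVU1-19, which is dim at 3.96 in DMSO and 3.43 in YW3-56, gave -0.53.

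RNVU1-4 and RNVU1-17 fell by less. RNVU1-4 read 6.63, 6.61 and 6.97 in DMSO and 6.29, 6.21 and 6.28 in YW3-56 (-0.48 ± 0.11, limma adjusted p = 0.014), and its 3 probe sets gave from -0.48 to -0.47. RNVU1-17 read 4.41, 4.41 and 5.03 in DMSO and 3.80, 3.87 and 4.22 in YW3-56 (-0.65 ± 0.18, limma adjusted p = 0.036). RNVU1-17 is dim, with a mean at percentile 0.592 of all genes tested, and its DMSO replicate 3 stood above the other two. Its call was lost in the fits without DMSO replicate 3 (-0.45, adjusted p = 0.0526), without YW3-56 replicate 1 (0.119) or 2 (0.112), and without both replicate 1 arrays (0.0517). That of RNVU1-4 was lost without YW3-56 replicate 2 (0.0577) or 3 (0.0541).

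The remaining U1 variants did not pass. RNVU1-1 read 9.18, 9.42 and 9.43 in DMSO and 8.57, 9.11 and 9.11 in YW3-56, a log2 difference of -0.41 with a 95% interval from -0.77 to -0.06 (limma adjusted p = 0.0988). RNVU1-8 read 6.63, 6.92 and 7.09 in DMSO and 6.6, 6.24 and 6.6 in YW3-56 (-0.40 ± 0.14, limma adjusted p = 0.0847). Neither gene's groups overlapped, and both were called without DMSO replicate 1 (adjusted p = 0.0448 for RNVU1-1 and 0.014 for RNVU1-8). With the replicate number as a block, RNVU1-1 was called (adjusted p = 0.0152) and RNVU1-8 was not (0.0657).

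RNVU1-3 was the exception among the U1 variants. It read 6.53, 6.09 and 6.68 in DMSO and 6.63, 6.55 and 6.90 in YW3-56, with a fitted difference of 0.26 and a 95% interval from -0.10 to 0.62 (limma adjusted p = 0.319). Its groups overlapped, because DMSO replicate 2 was low and the other DMSO arrays lay among the treated values. The intervals of RNVU1-3 and of RNVU1-6, RNVU1-15 and RNVU1-19 (upper bounds of -1.04, -0.89 and -1.08) do not meet, although the difference between these genes was not tested.

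The main U1 genes are not among the 39, because their probe sets list several symbols. There are 9 such probe sets, each listing from 6 to 7 genes with RNU1-1, RNU1-2, RNU1-3 and RNU1-4 among them. They hold 3 distinct patterns of values at 2 decimals, so they are not 9 independent measurements. Those that list 7 genes, 7898375 among them, also list RNVU1-17, whose call as lower rests on its own dim probe set (7919570). Probe set 7898375 read 11.93, 12.22 and 12.23 in DMSO and 11.34, 11.81 and 12 in YW3-56, a difference of -0.41 ± 0.18 (limma adjusted p = 0.225 over all probe sets). Probe set 7919269 read 12.30, 12.52 and 12.71 in DMSO and 11.78, 12.32 and 12.43 in YW3-56 (-0.34 ± 0.19, adjusted p = 0.351). Treated replicate 3 reached into the DMSO range in the first, as did treated replicates 2 and 3 in the second. Limma called 0 of the 9 at an adjusted p under 0.05, and 0 of the 9 were at an unadjusted p under 0.05. Within replicate numbers every difference was below 0, at -0.60, -0.40 and -0.23 for probe set 7898375 and -0.52, -0.20 and -0.28 for 7919269. The replicate block was planned, and its use over all probe sets was added after seeing the data. There, limma again called 0 of the 9, with adjusted p-values of 0.0559 and 0.0798 for these probe sets. In that fit all 9 were at an unadjusted p under 0.05.

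**Figure D2:**
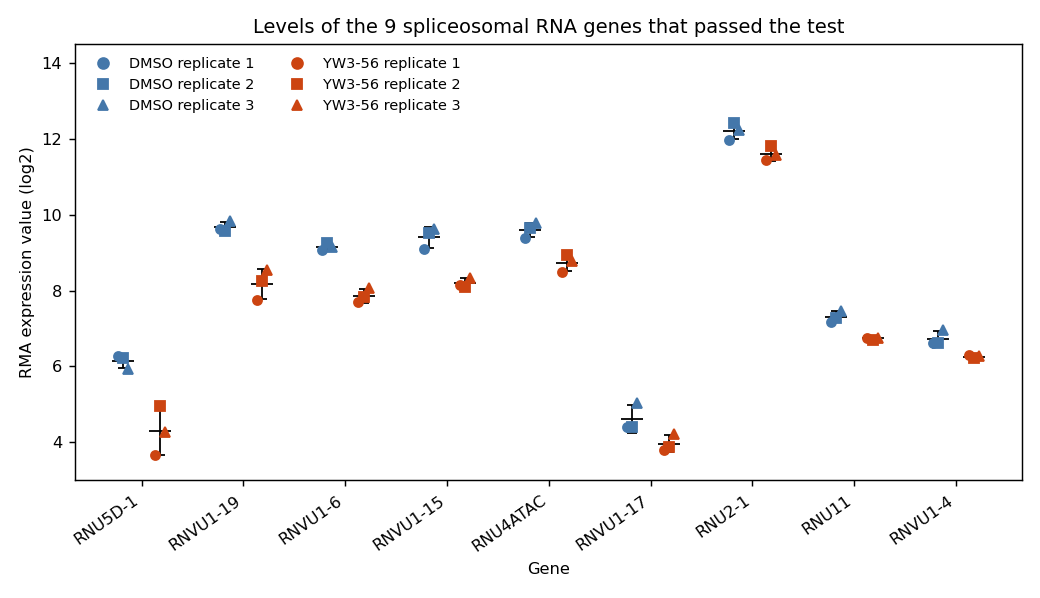
RMA expression values (log2) of the 9 spliceosomal RNA genes called by limma, with 3 DMSO arrays in blue and 3 YW3-56 arrays in red; the horizontal dash is the group mean and the bar 1 SD. For each gene the treated points lie below the DMSO points, with log2 differences from -1.84 for RNU5D-1 at the left to -0.48 for RNVU1-4 at the right. Levels of different genes come from different probes and are not comparable with each other.

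U2 RNA recognises the branch point, and RNU2-1 stands for a tandem array of U2 genes. Its brightest probe set, 8019631, read 11.98, 12.41 and 12.24 in DMSO and 11.44, 11.81 and 11.58 in YW3-56, and was 1.52-fold lower (-0.60 ± 0.13, limma adjusted p = 0.0143). The groups did not overlap, and within replicate numbers the differences were close to each other, at -0.54, -0.61 and -0.66. Of the 11 probe sets named RNU2-1, 9 hold identical values, and the other two gave -0.68 and -0.71. Without DMSO replicate 2 the call was lost (-0.50, adjusted p = 0.0555), as it was without YW3-56 replicate 1 (0.0527) or 3 (0.0604), whereas the replicate block gave an adjusted p of 0.0019.

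U4 RNA holds U6 inactive until the spliceosome is activated. RNU4-1 read 9.25, 9.70 and 9.23 in DMSO and 8.97, 9.52 and 9.40 in YW3-56 (-0.10, 95% interval from -0.49 to 0.30, limma adjusted p = 0.769). RNU4-2 read 6.25, 6.11 and 5.29 in DMSO and 5.99, 6.29 and 5.43 in YW3-56 (0.02, 95% interval from -0.63 to 0.67, adjusted p = 0.971). Neither passed. In this fit without the replicate block, the interval of RNU4-2 includes the difference of -0.60 seen for RNU2-1, and that of RNU4-1 does not. The arrays numbered 3 were low for RNU4-2 in both groups. With the replicate block the SE of RNU4-2 went from 0.28 to 0.10, at the same fitted difference of 0.02 (limma adjusted p = 0.897).

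U5 RNA aligns the exon ends, and its 5 measured genes are sequence variants of each other. RNU5D-1 (probe set 7915592) read 6.28, 6.23 and 5.92 in DMSO and 3.67, 4.96 and 4.28 in YW3-56, and was 3.58-fold lower as measured (-1.84 ± 0.28, limma adjusted p = 0.00277). The treated values are dim and were not tested against background, so the size of this fold is uncertain. The groups were far apart, with the treated arrays more scattered (SD 0.65) than the DMSO arrays (SD 0.20), and the gene's mean lay at percentile 3.06 of all genes. RNU5F-1, also on chromosome 1, is dim, at percentile 0.32, and read 3.71, 4.18 and 3.98 in DMSO and 3.15, 3.80 and 3.81 in YW3-56 (-0.37 ± 0.19, limma adjusted p = 0.242). With the replicate block RNU5F-1 was called (adjusted p = 0.0292).

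RNU5E-1 varied more between replicates than between groups. It read 9.40, 10.21 and 10.12 in DMSO and 8.82, 10.14 and 9.72 in YW3-56 (-0.36 ± 0.33, limma adjusted p = 0.546), with replicate 1 the lowest array in both groups. Within replicate numbers the differences were -0.58, -0.08 and -0.41. With the replicate block RNU5E-1 was just short of a call (SE 0.10, limma adjusted p = 0.0533). RNU5B-1 read 5.40, 5.29 and 5.20 in DMSO and 4.37, 4.71 and 5.60 in YW3-56 (-0.41 ± 0.27, limma adjusted p = 0.367). Its treated replicate 3 was the highest of all 6 values, and without that array the difference was -0.76 with an adjusted p of 0.0123. RNU5A-1 read 6.16, 5.63 and 6.20 in DMSO and 5.82, 6.03 and 5.67 in YW3-56, and its groups overlapped (-0.15, adjusted p = 0.601).

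In the minor spliceosome, U4atac and U11 fell and U12 and U6atac did not pass. U11 and U12 recognise the start and the branch point of rare introns, and U4atac pairs with U6atac as U4 does with U6. RNU4ATAC (probe set 8044961) read 9.39, 9.64 and 9.77 in DMSO and 8.49, 8.94 and 8.78 in YW3-56, and was 1.82-fold lower (-0.86 ± 0.14, limma adjusted p = 0.0033). RNU11 (probe set 7899502) read 7.18, 7.29 and 7.47 in DMSO and 6.76, 6.70 and 6.76 in YW3-56 (-0.57 ± 0.09, adjusted p = 0.00294). All treated values were below all DMSO values in both genes, and the treated values of RNU11 were tight, with an SD of 0.033.

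RNU12 read 6.99, 7.37 and 7.46 in DMSO and 7.10, 7 and 6.93 in YW3-56 (-0.26 ± 0.13, limma adjusted p = 0.2). DMSO replicate 1 lay within the treated range, and without it RNU12 was called (-0.41, adjusted p = 0.00875). RNU6ATAC read 7.57, 7.64 and 7.81 in DMSO and 7.44, 7.36 and 7.65 in YW3-56 (-0.19, 95% interval from -0.43 to 0.05, limma adjusted p = 0.261), and its other probe set gave -0.11. U6 itself was represented only by the pseudogene RNU6-501P, which read 6.62, 6.74 and 6.84 in DMSO and 6.51, 6.77 and 6.69 in YW3-56 (-0.07, adjusted p = 0.677). Its second probe set went the other way at 0.10, the only member with probe sets of opposite sign. RNU6ATAC and, by its symbol only, the pseudogene RNU6-501P were grouped under polymerase III. Neither was called, against 9 of the 19 polymerase II members. Whether polymerase III transcribes RNU6-501P was not tested, and with so few genes no comparison between polymerases was made.

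RNU4ATAC lies inside CLASP1, a microtubule-binding protein gene that was called in the other direction, at 0.43 ± 0.08 (limma adjusted p = 0.0057). RNU6-501P lies inside NAV1, a neuron navigator gene, which changed by -0.63 ± 0.11 (adjusted p = 0.0055). RNU4-1 lies inside the span of SIRT4 (-0.10, adjusted p = 0.643). The strand of these genes was not used, so the overlap is one of position only.

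Most Cajal body RNAs had a small fitted difference. Their log2 differences ran from -0.23 for SCARNA16 to 0.51 for SCARNA9, and 14 of the 16 had DMSO and YW3-56 ranges that overlapped. SCARNA10, a mixed C/D and H/ACA guide, read 8.59, 8.57 and 8.73 in DMSO and 8.54, 8.63 and 8.70 in YW3-56 (-0.01, 95% interval from -0.19 to 0.18). SCARNA7, a box C/D guide, read 8.40, 8.26 and 8.17 in DMSO and 8.41, 8.24 and 8.18 in YW3-56 (-0.00, 95% interval from -0.22 to 0.21). For both genes the treated and untreated values were interleaved, and a fall of the size seen for RNU11 lies outside the interval. Some other intervals were wider. That of SCARNA1, from -0.53 to 0.23, includes the difference of -0.48 seen for RNVU1-4.

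Among 8 box H/ACA guides the median difference was -0.11, and 7 were fitted below 0 with none called. SCARNA16 read 8.86, 8.85 and 9.09 in DMSO and 8.66, 8.78 and 8.67 in YW3-56 (-0.23 ± 0.09, limma adjusted p = 0.127), with no overlap. SCARNA22 read 8.08, 8.34 and 8.46 in DMSO and 8.11, 8.23 and 8.02 in YW3-56 (-0.18, adjusted p = 0.335), and was called only without DMSO replicate 1 (-0.28, adjusted p = 0.0488) and with array weights (0.0481). SCARNA1, SCARNA4, SCARNA8, SCARNA11 and SCARNA14 had differences between -0.15 and -0.02, and SCARNA23, a dim gene at percentile 1.21, had 0.12. Their adjusted p-values ran from 0.487 for SCARNA14 to 0.939 for SCARNA4.

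The 4 mixed guides had a median of -0.06. SCARNA12 read 11.59, 11.59 and 11.64 in DMSO and 11.32, 11.50 and 11.52 in YW3-56 (-0.16 ± 0.08, limma adjusted p = 0.225). The groups did not overlap, and the DMSO arrays differed by no more than 0.05. SCARNA5 (-0.05) and SCARNA6 (-0.07), which lie in the same gene, had adjusted p-values of 0.725 and 0.718. In both, YW3-56 replicate 3 was the lowest array, at 7.13 for SCARNA5 and 7.49 for SCARNA6.

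SCARNA9, a box C/D guide for U2, had the largest difference among the Cajal body RNAs. It read 7.91, 7.28 and 7.72 in DMSO and 8.25, 7.90 and 8.31 in YW3-56, a log2 difference of 0.51 ± 0.17 with a 95% interval from 0.12 to 0.90 (limma adjusted p = 0.0682). YW3-56 replicate 2 fell just below DMSO replicate 1, so the groups overlapped by a small amount, while each treated array exceeded the DMSO array of its number, by 0.34, 0.61 and 0.58. With the replicate block it was called (adjusted p = 0.00592), as it was without DMSO replicate 1 (0.65, adjusted p = 0.0155). Its other probe set gave 0.20 ± 0.20. The related gene SCARNA9L read 6.14, 6.27 and 6.29 in DMSO and 6.45, 6.21 and 6.17 in YW3-56 (0.05, limma adjusted p = 0.808), and the box C/D guide SCARNA17 changed by 0.06 (adjusted p = 0.663).

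RNU105B and RNU105C, the small nucleolar RNAs with an RNU symbol, did not pass, at 0.04 (limma adjusted p = 0.763) and -0.10 (0.533). SCARNA13 and SCARNA15 shared their probe sets with the host transcripts SNHG10 and SNHG21 and are not among the 39. The probe set of SCARNA13 gave -0.15 ± 0.12 and that of SCARNA15 gave 0.11 ± 0.21.

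All 16 Cajal body RNAs lie inside the span of another gene, and 13 such genes were tested, holding 14 of the RNAs. Of these containing genes 5 were called lower and 1 higher, while their Cajal body RNAs were not called. Shares over all genes were 11.5% lower and 9.84% higher. Among the 13405 genes with a mean of at least 7, limma called 2390 lower and 1914 higher. TIPIN, a replication fork protein, was 2.09-fold lower (-1.06 ± 0.15, limma adjusted p = 0.002) with SCARNA14 at -0.13, and CHD4, a chromatin remodeller, changed by -0.54 ± 0.07 (adjusted p = 0.0011) with SCARNA11 at -0.02. EIF1AX, a translation initiation factor, changed by -0.46 with SCARNA9L at 0.05, NCAPD2, a condensin subunit, by -0.36 with SCARNA10 at -0.01, and NSD2, a histone methyltransferase, by -0.23 with SCARNA22 at -0.18. CEP295, a centriole protein, was higher at 0.33 ± 0.09 (adjusted p = 0.0309), as its SCARNA9 was in fitted value. Leaving out single arrays ended the NSD2 call in all 6 fits, the CEP295 call in every fit but that without DMSO replicate 1, and the NCAPD2 call without DMSO replicate 2 (0.0745) or YW3-56 replicate 1 (0.0612) or 3 (0.0534).

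Over the 14 pairs, the differences of Cajal body RNA and containing gene correlated at a Pearson r of 0.45 and a Spearman rho of 0.25, given as a description because the pairs share arrays and 2 RNAs share ATG16L1. Without SCARNA9, r over the remaining 13 pairs was 0.13. SCARNA11 had a 95% interval from -0.25 to 0.21 beside the fall of CHD4. SCARNA14 is dim, at percentile 2.20, so its value says little beside the fall of TIPIN.

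**Figure D3:**
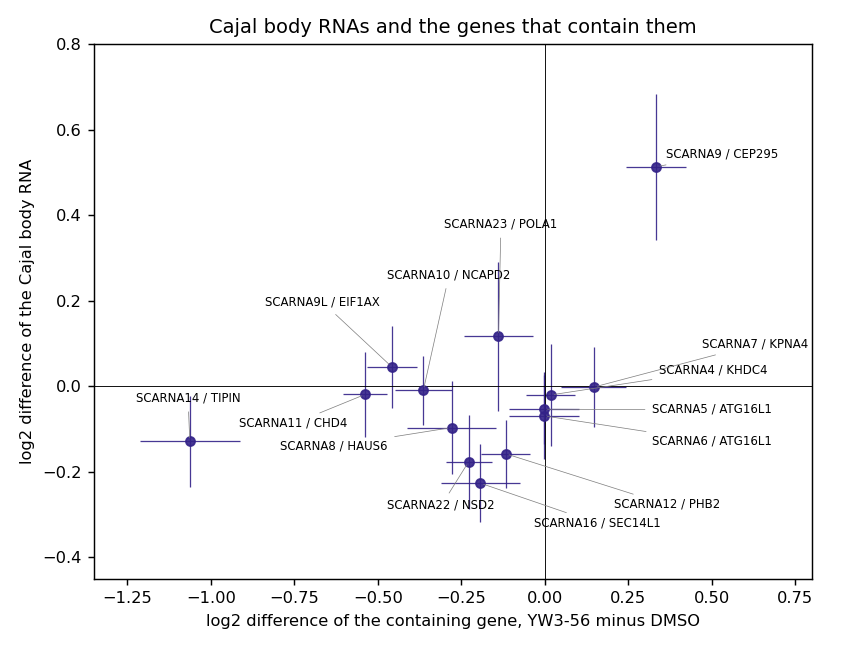
Log2 difference of each Cajal body RNA (vertical) against that of the gene whose span contains it (horizontal), both YW3-56 minus DMSO, for 14 pairs; bars are 1 SE from limma. The containing genes spread from -1.06 to 0.33 on the horizontal axis, while all RNAs but SCARNA9 lie between -0.23 and 0.12.

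Arrays were also compared within replicate numbers. There, YW3-56 minus DMSO was below 0 in all 3 pairs for 14 of 21 spliceosomal RNAs (66.7%), for 2 of 16 Cajal body RNAs (12.5%) and for 33.4% of all genes tested. The median over the 21 spliceosomal RNAs was -0.54, -0.40 and -0.53 in pairs 1, 2 and 3, and over the Cajal body RNAs it was -0.00, -0.04 and -0.11. Replicate 1 was the lowest array in both groups for 7 of the 21 spliceosomal RNAs (33.3%), 1 of the 16 Cajal body RNAs and 25.5% of all genes. With the replicate number as a block, limma called 11 spliceosomal RNAs lower and 1 Cajal body RNA, SCARNA9, higher, and 36 of the 39 genes kept their side of the threshold. In that fit 14.4% of all genes were called lower and 11.5% higher, both larger shares than without the block.

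Relative to the DMSO mean of each gene, the median over the spliceosomal RNAs was -0.77, -0.40 and -0.34 in YW3-56 replicates 1, 2 and 3, and from -0.13 to 0.16 in the DMSO arrays. Over the Cajal body RNAs it was -0.03, -0.00 and -0.09 in YW3-56 and from -0.02 to 0.03 in DMSO. Every treated array was thus below every DMSO array in the spliceosomal median, and YW3-56 replicate 1 was the lowest. For the small nucleolar RNAs, which are also short and mostly cut from introns, the limma counts were 54 lower and 1 higher of 115 box C/D genes (median -0.32) and 23 lower and 3 higher of 61 box H/ACA genes (median -0.17). Shares over all genes were 11.5% lower and 9.84% higher. The difference between the small nucleolar RNA classes and the Cajal body RNAs was not tested.

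**Figure D4:**
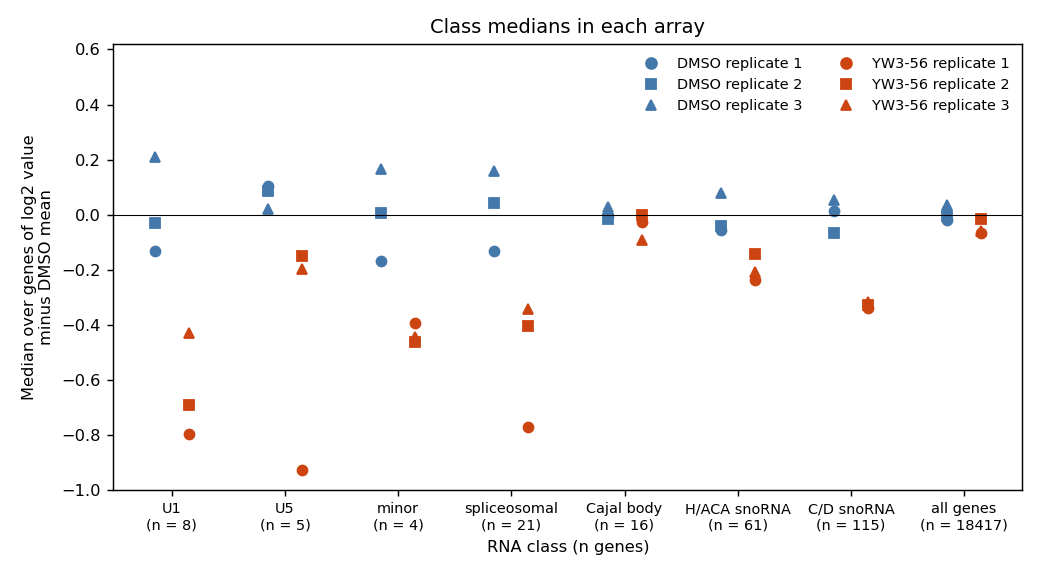
Each point is 1 array and shows the median, over the genes of a class, of the log2 value minus that gene's DMSO mean; blue is DMSO, red is YW3-56 and the marker shape is the replicate number. The red points of U1, U5, the minor class, all spliceosomal RNAs and both small nucleolar RNA classes lie below the blue ones, and those of the Cajal body RNAs lie within 0.1 of 0.

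Total RNA was purified with the RNeasy Mini kit, and how fully and how evenly it recovered short RNAs from each sample was not tested. By RefSeq, the spliceosomal members are 100 to 188 bases long and the Cajal body RNAs 125 to 421. The 8 Cajal body RNAs no longer than 188 bases are the same 8 box H/ACA guides described above. Their median difference was thus the same -0.11, and 0 of them were called by limma. Length and box type cannot be told apart among the Cajal body RNAs, and 5 of these 8 had means in the lower quartile of all genes. Whether length or recovery had a part in any of the differences was not tested. Of the 39 genes, 17 had a mean under 6.89, the lower quartile of all genes, 10 of them spliceosomal and 6 Cajal body RNAs. Among the 11 spliceosomal RNAs above that quartile, 6 were called lower.

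The proteins that make, carry and bind these RNAs were described from 10 lists by role, by their transcripts only. Of 130 genes 123 were measured, and of these 28 were lower and 10 higher. Over all genes, limma called 11.5% lower and 9.84% higher. With a mean of at least 7 required, it called 2390 of 13405 genes lower and 1914 higher. No list was tested as a whole. The SMN complex loads Sm proteins onto spliceosomal RNAs. Of 19 measured genes for export and SMN assembly, 7 were lower, 1 was higher and 11 did not pass (median -0.17). GEMIN5, which recognises the RNA, was 2.03-fold lower, from 10.8 ± 0.14 (SD, n = 3) to 9.77 ± 0.13 (log2 difference -1.02 ± 0.10 SE, limma adjusted p = 0.00046). WDR77, a partner of the arginine methyltransferase that modifies Sm proteins, changed by -0.80 ± 0.07 (adjusted p = 0.00029), GEMIN4 by -0.77 ± 0.08 and GEMIN6 by -0.73 ± 0.10. GEMIN7 (-0.60), TOE1 (-0.57) and KPNB1 (-0.25) complete the lower genes, and GEMIN8 (0.26) was the higher one; these were named after their values were seen.

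Of the Sm core proteins, which form the ring around spliceosomal RNAs, SNRPD1 was lower (-0.69 ± 0.08, limma adjusted p = 0.0011) and the other 6 measured did not pass (median -0.20). SNRNP70, which binds U1, was the only 1 of 3 U1 proteins called (-0.35 ± 0.07, adjusted p = 0.0109), a call lost without YW3-56 replicate 2 (0.0532). Of 12 U2 proteins, 3 were lower, led by PHF5A (-0.39 ± 0.08), and SF3A2 (-0.26) and SF3A3 (-0.24) lost their calls in 5 and in 6 of the 6 fits that left out an array. Of 15 proteins of U4/U6 and U5, 3 were lower: SNRNP40 (-0.61 ± 0.08, adjusted p = 0.0011), PRPF4 (-0.35) and EFTUD2 (-0.30), the last of which lost its call without DMSO replicate 2 (0.0736) or YW3-56 replicate 2 (0.0728) or 3 (0.0817). With the replicate block, SNRPF of the Sm list was called as well (-0.23, adjusted p = 0.0464). No gene of these 4 lists was called higher, and SNRNP27 of the U5 list had 0.17 (limma adjusted p = 0.212) without overlap, named after its value was seen.

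For U6, which carries a ring of LSm proteins instead of Sm proteins, 3 of 13 genes were lower and 1 was higher (median -0.10). LSM5 (-0.48 ± 0.08, limma adjusted p = 0.0031), USB1, which trims the end of U6 (-0.34), and LSM2 (-0.29) fell, and MEPCE, a capping enzyme, rose (0.27). USB1 was lost without YW3-56 replicate 2 (adjusted p = 0.0595) or 3 (0.0852). LSM2 was lost without each of the 6 arrays in turn, and MEPCE without every array but DMSO replicate 1 and YW3-56 replicate 1.

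Of 9 measured proteins of the minor spliceosome, 0 were called lower by limma and 1 higher, with a median of 0.15. The higher one was CENATAC, a protein of minor intron splicing, from 10.3 ± 0.02 to 11.1 ± 0.06 (0.72 ± 0.07, limma adjusted p = 0.00044). SNRNP25 (-0.25), SNRNP48 (0.27) and RNPC3 (0.28) did not pass. With the replicate block SNRNP25 was called (adjusted p = 0.0487).

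Of 15 measured transcription factors of these genes, 1 was lower, 2 were higher and 12 did not pass (median 0.11). BRF2, a factor that polymerase III uses at U6 genes, was higher (0.77 ± 0.09, limma adjusted p = 0.00072). SNAPC2, a subunit of the complex that binds all these promoters, was lower (-0.33 ± 0.07, adjusted p = 0.0146) and ICE1, a component of the elongation complex at these genes, higher (0.35, adjusted p = 0.0398). The SNAPC2 call was lost without DMSO replicate 2 (0.0583), YW3-56 replicate 2 (0.0679) or 3 (0.069), and that of ICE1 without every array but DMSO replicate 1. In the Integrator complex, 4 of 14 subunits were higher and 2 lower (median -0.06). INTS2 (0.50 ± 0.09), INTS12 (0.48 ± 0.07) and INTS6 (0.37 ± 0.07) rose and INTS10 (-0.39 ± 0.08) fell, with limma adjusted p-values from 0.0027 to 0.0112, and INTS10 was lost without YW3-56 replicate 2 (0.0523) or 3 (0.0504). INTS4 (0.30) and INTS9 (-0.32) complete the counts and were named after their values were seen.

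Transcripts for proteins of the Cajal body and of scaRNA particles fell for 7 of 16 measured genes and rose for 1 (median -0.27). Shares over all genes were 11.5% lower and 9.84% higher. The Cajal body RNAs were not called, and protein was not measured. DKC1, the pseudouridine synthase of H/ACA particles, was 1.72-fold lower, from 10.6 ± 0.05 to 9.80 ± 0.06 (-0.78 ± 0.07, limma adjusted p = 0.00036). ZNHIT6, which helps to assemble C/D particles (-0.63 ± 0.09), the nucleolar and Cajal body protein NOLC1 (-0.50 ± 0.11) and SHQ1, an assembly factor for DKC1 (-0.47 ± 0.09), followed. NOLC1 lost its call without YW3-56 replicate 2 (0.0601) or 3 (0.069). WRAP53, which brings scaRNAs to the Cajal body, was lower (-0.26), as were NOP58 (-0.45) and RUVBL2 (-0.27), and ZNHIT3 rose (0.42). COIL, the scaffold protein of the body, had a difference of -0.06 (adjusted p = 0.617). These genes were named after their values were seen.

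**Figure D5:**
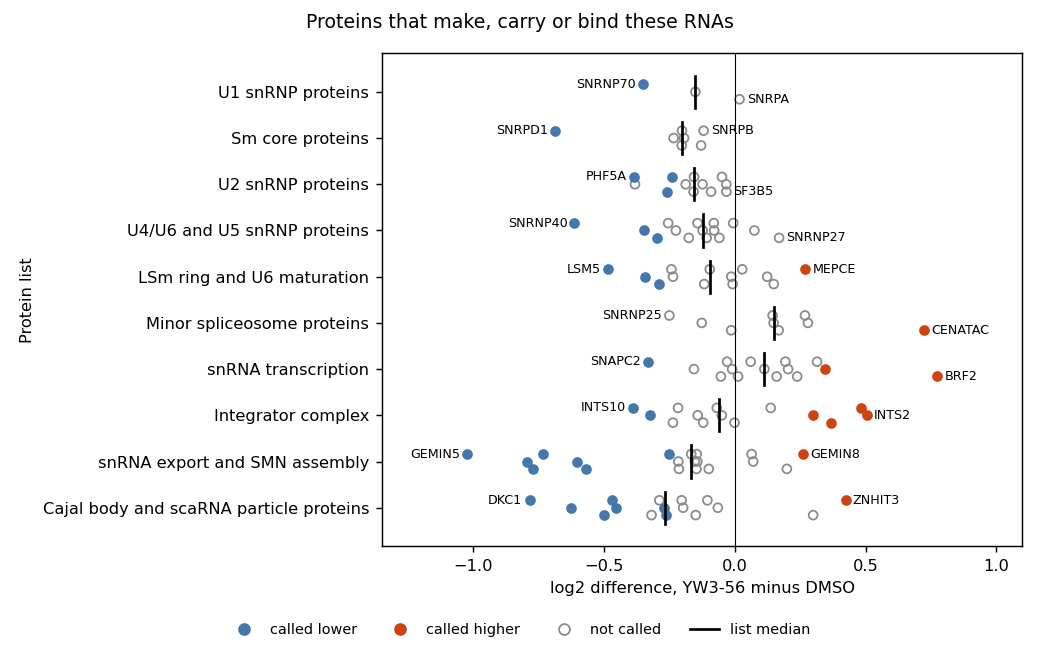
Log2 difference, YW3-56 minus DMSO, of each measured gene in the 10 protein lists; filled blue points were called lower by limma, filled red points higher and open points not called, and the black bar is the list median. The lists for SMN assembly and for the Cajal body hold 7 blue points each, while the minor spliceosome, transcription and Integrator lists also hold filled points to the right of 0.

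As a check of the line, the mesenchymal genes VIM and CD44 had DMSO values of 13.4 and 13.3, and CDH1, the epithelial cadherin, had 6.34 ± 0.02 (SD, n = 3) and the oestrogen receptor gene ESR1 6.82 ± 0.35. Other markers did not follow this division: the epithelial keratin gene KRT18 had 11.9, ERBB2, which encodes HER2, 9.09, EPCAM 7.76 and the mesenchymal gene SPARC 7.66. Blood cell genes (4 measured) had summed log2 values of 24.8 to 26.0 in DMSO and 25.4 to 25.6 in YW3-56, and 1 of them, HBB, was called higher (0.37). The 4 endothelial genes had 26.1 to 27.4 and 26.8 to 27.4, with 0 called by limma. The files give no detection calls, so no gene can be called absent. CAV1 (-0.43) and KRT18 (-0.27) were called lower among the mesenchymal and epithelial genes. The part of these shifts in the results was not tested. Array medians ran from 7.55 to 7.74.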

How the data were processed

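Expression was measured on 6 Affymetrix whole-transcript arrays, 3 per group. The deposited values are log2 expression values for 33297 probe sets, made by the authors with RMA and affy per the submitters' processing notes, which state neither version. RMA is meant to equalise the distributions of the arrays, yet the medians of the deposited values still ran from 7.55 to 7.74. A shift of all RNAs one way could be hidden by such scaling and was not tested. Centring each array on its median took the genes limma called lower from 2121 to 1432 and higher from 1812 to 1691. In that fit 9 spliceosomal RNAs were again called lower. Arrays carry no read depth, and their number limits the precision.

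Probe sets with a single symbol in the platform annotation (19460), which can be old, were kept, and the brightest by mean over 6 arrays stood for each of 18417 genes. YW3-56 was compared with DMSO by limma 3.58.1 in R 4.3.3 (lmFit and eBayes, group as the only term, two-sided, Benjamini-Hochberg over all genes, called under 0.05; 4 residual and 4.17 prior degrees of freedom). The fit was tested on simulated data drawn independently for each array. Those data lack the correlation between replicate numbers described below, so the test does not cover it. Lengths and containing genes came from RefSeq (GRCh38.p14); its table gives no strand here, so containment was by position only, not by strand as planned, and no coordinates are printed because no source used here gives the array's build.

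The members, classes and lists were chosen with earlier results of these data known. The rule named the spliceosomal RNAs other than uncalled pseudogenes, the Cajal body RNAs, genes containing the latter, and up to 4 genes per protein list by size of change, called ones first. RNU6-501P, RNU105B, RNU105C, CLASP1, NAV1, SIRT4 and the marker genes lie outside it and were named after their values were seen. Deviations from group means correlated over genes at 0.54, 0.37 and 0.10 between arrays of the same replicate number. Each was above the bound of 0.1 (the last at 0.102), so the numbers were taken as pairs in the replicate block fit. The main fit has group as its only term, so SEs, intervals and p-values not given with the block leave pairing out. DMSO replicate 3 and YW3-56 replicate 2, of unlike numbers, correlated at 0.42, so the pairing itself is uncertain. Alternatives were the replicate block, scaling, dim filters, probe set choice, prior, array weights and leaving out arrays. No member sequence was used here.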

Additional observations from a re-analysis of the deposited data

How the results depend on the processing

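All values rest on 3 arrays per group, and dim probe sets have the least certain sizes. Of the 9 called members, 5 (RNU11, RNU4ATAC, RNVU1-6, RNVU1-15 and RNVU1-19) kept direction and call in each of the 17 alternatives in which they were fitted. No member was called in opposite directions in any of them. The count of spliceosomal RNAs called lower was 9, and stayed from 8 to 12 with the replicate block, other scaling, a mean of at least 5, other probe set choices, the trended prior or array weights (11 with the block). With a mean of at least 7 required, 11 spliceosomal RNAs were tested and 6 were called. Leaving out single arrays gave 7 to 12 lower. Per-gene variance without eBayes, added after seeing the data, gave 5, losing RNU2-1 (adjusted p = 0.0982), RNU5D-1 (0.0561), RNVU1-4 (0.0801) and RNVU1-17 (0.178). Testing every probe set ended the call of RNVU1-17 (0.0802). Array weights called 1 spliceosomal RNA higher (RNVU1-3, 0.51, adjusted p = 0.0233), 1 Cajal body RNA higher (SCARNA9) and 1 lower (SCARNA22). SCARNA9 was the 1 Cajal body RNA called higher under the replicate block, the trended and robust prior, and without both replicate 1 arrays together, which was also added after seeing the data; leaving out single arrays gave 0 to 1 in either direction, the 1 being SCARNA9 or SCARNA22 without DMSO replicate 1, and 0 to 0 spliceosomal RNAs higher. Over all genes, limma called 3933, against 6079 with array weights and 2364 to 4689 without single arrays. Centring each array ended 10 calls among the named protein and containing genes and none among the members. Among all listed and containing genes, the replicate block ended the call of NSD2 (0.0504) and added SNRPF, SNRPA1, SNRNP25, SART1, INTS5 and NOP10, and the markers EPCAM and SPARC, all lower. It then called 4 genes lower for U4/U6 and U5, 3 for Integrator and 8 for the Cajal body.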

Other observations

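Other short noncoding RNAs outside the spliceosome and Cajal body, chosen after their values were seen, went different ways. VTRNA1-3, a vault RNA made by RNA polymerase III, went from 8.82 ± 0.12 (SD, n = 3) to 7.91 ± 0.03, a log2 difference of -0.91 ± 0.08 SE (limma adjusted p = 0.00034). Its relatives VTRNA1-1 (0.06, adjusted p = 0.85) and VTRNA1-2 (-0.25, adjusted p = 0.3) did not pass. RPPH1, the RNA of RNase P, had a difference of 0.11 (adjusted p = 0.485), and RMRP, that of RNase MRP, had -0.28 (adjusted p = 0.171; 0.0224 with the replicate block). TERC, the telomerase RNA, which also passes through Cajal bodies, had -0.23 ± 0.08 (adjusted p = 0.0738), and RNY1, a Y RNA, had 0.58 ± 0.19 (adjusted p = 0.0645; 0.0454 with the replicate block).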
